A study of Homo sapiens with 4 samples.

Results

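The genes described here repair DNA double-strand breaks and crosslinks, together with their checkpoint kinases, mismatch repair factors and poly(ADP-ribose) polymerases. They were chosen by name. Of 51 genes sought under 52 names, 46 are listed among the 10147 expressed genes of the TT-seq table, and RAD51D, RAD54B, MRE11, RBBP8 and ATRIP are not. TT-seq reads out RNA that took up 4-thiouridine (4sU) within a few minutes, so its values are RNA synthesis and not the amount of mRNA in the cell. All samples were K562 cells, a human chronic myelogenous leukemia line, edited so that IWS1, an elongation factor that travels with RNA polymerase II, carries a degradation tag (dTAG) at its N-terminus. The control group received the solvent DMSO and the dIWS1 group 500 nM dTAG7, the compound that directs the tagged protein to degradation, for 1 h in each case, followed by 5 min of 500 µM 4sU. The labels give 2 libraries per group. The edited cells were derived as clones, and how many clones entered TT-seq is not given in the sources used here.

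The table gives per gene a mean over 4 library columns of reads divided by spike-in size factors, and these means could be taken apart into whole reads for 3 different columns. The control column entered the mean 2 times with identical values and was therefore counted as 1 sample, and the dIWS1 columns, which cannot be tied to a replicate, are named here column 1 and column 2. Which columns are dIWS1 follows from the sign of the deposited comparison and from the study's description of it, since the table names no column. Reads in genes summed to 29832118 in the control, to 20684301 in dIWS1 column 1 and to 20886697 in dIWS1 column 2. No spread between control samples could be measured, so each test below assumes that the control varies as the dIWS1 columns do. Its p-values rest on the difference between these 2 columns taken over all genes together. In the main fits the difference between the columns of a single gene had no weight of its own. How close the 2 columns of a gene lie is therefore not what sets its p-value. Of 13 marker genes for K562 cells, 12 are listed, among them GATA1 and TAL1, whereas BCR is not. None of 4 lymphoid markers is listed, and 2 of 4 epithelial markers are (KRT8 and KRT18). IWS1 itself had 3684 reads in the control and 2334 and 2427 in the dIWS1 columns, but the tag acts on the protein, so these reads are no check of its depletion.

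Broken chromosome ends are bound by the MRN complex of MRE11, RAD50 and NBN, which activates the kinase ATM. A break is either rejoined directly or resected and copied from the sister chromatid. Direct rejoining is non-homologous end joining, through the Ku proteins, DNA-PKcs, XRCC4 and LIG4. Copying is homologous recombination, in which BRCA1, BRCA2, RAD51C and XRCC3 take part. Crosslinks between the DNA strands need the Fanconi anemia proteins, whose core complex ubiquitinates FANCD2 and FANCI. K562 cells divide rapidly, and many of these genes are transcribed in cycling cells.

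With spike-in scaling, the synthesis of 35 of the 46 repair genes was called lower in dIWS1 cells and that of none was called higher (limma voom, adjusted p under 0.05 over 9917 genes with a mean normalized count of at least 10). The 35 made up 76.1% of the repair genes, and of all genes tested 65.6% were called lower and 0.101% higher. Without adjustment, also none of the 46 had a p under 0.05 in the higher direction. With total reads as the scale instead of the spike-ins, 17 repair genes were called lower and 9 higher. In bulk samples fewer labelled cells and less new RNA per cell cannot be told apart. The median log2 change of the repair genes was -0.52 (quartiles -0.67 and -0.30), and that of all genes was -0.42 (quartiles -0.60 and -0.26). Column 1 had a median of -0.59 for the repair genes and -0.47 for all genes, and column 2 had -0.47 and -0.37. In 45 of the 46 both dIWS1 columns lay below the control, which was so for 93% of all genes tested. The exception was NBN.

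**Figure D1:**
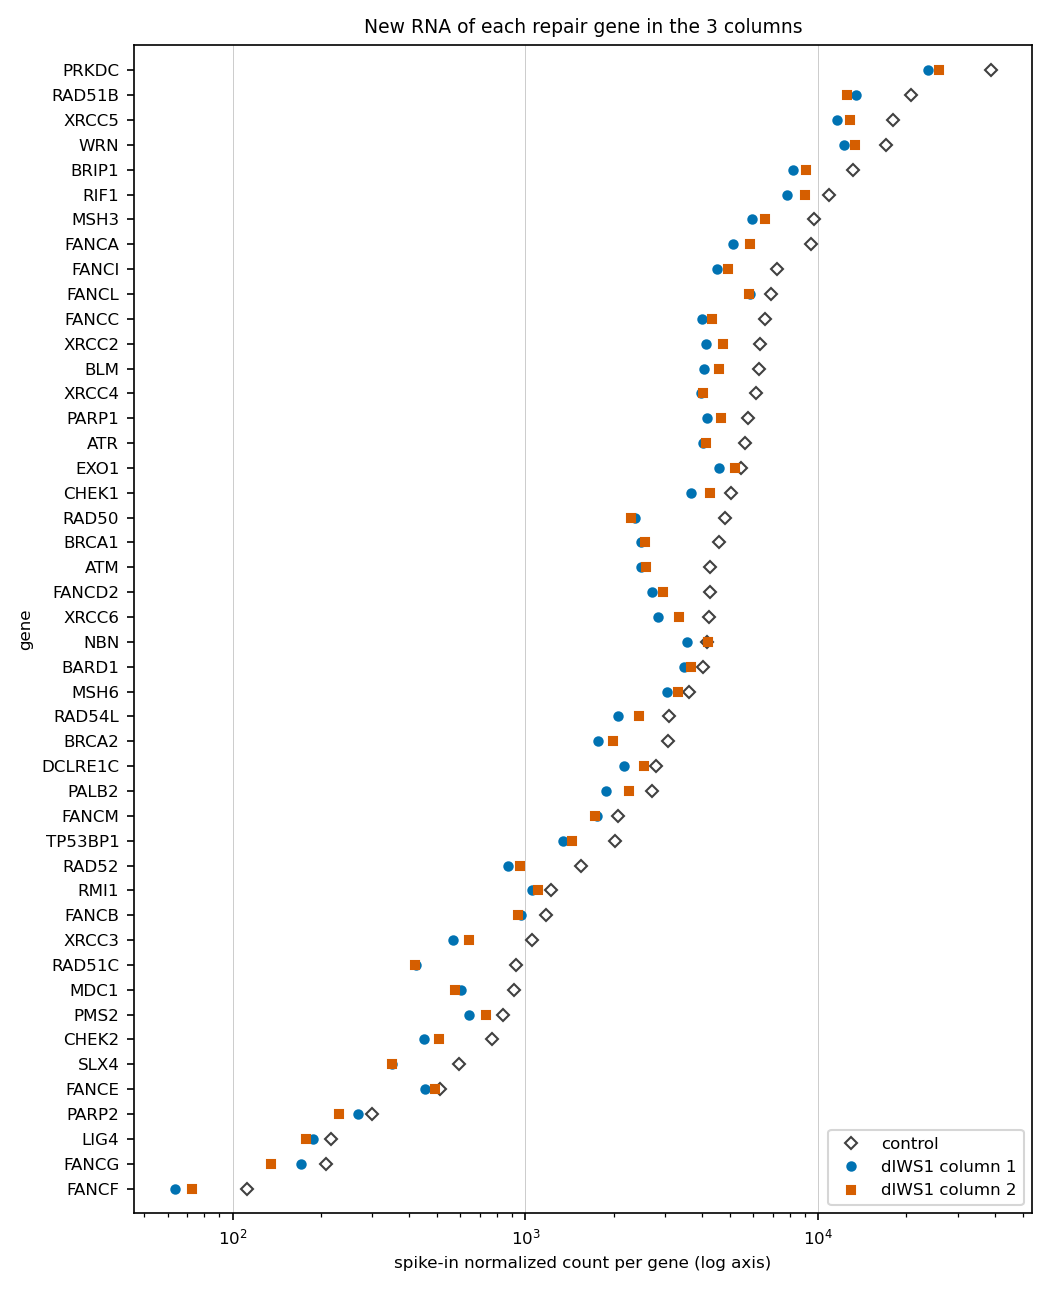
Spike-in normalized count (log axis) of each of the 46 repair genes in the control (open diamonds) and in dIWS1 columns 1 and 2 (filled circles and squares), with genes ordered by the control. PRKDC is at the top with 38951 in the control and FANCF at the bottom with 112, and both dIWS1 symbols lie left of the control for every gene except NBN.

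Because most genes were lower, each gene was also measured against the median gene, by taking -0.42 off every log2 change. On this scale 3 of the 46 repair genes were called lower, RAD51C, RAD50 and BRCA1, and none was called higher, where 4.86% of all genes tested were called lower and 2.98% higher. Without adjustment, 9 repair genes had a p under 0.05 in the lower and 2 in the higher direction. When each dIWS1 column was set on its own median gene, which removes the offset between the 2 columns, 17 repair genes were called lower and 7 higher, against a background of 15.1% and 15.3%. The 17 called lower there were RAD51C, RAD50, BRCA1, XRCC3, FANCA, SLX4, ATM, RAD52, BRCA2, CHEK2, RAD51B, FANCC, PRKDC, MSH3, FANCI, XRCC4 and BRIP1. The 7 called higher on that scale were NBN, FANCE, EXO1, BARD1, RMI1, MSH6 and FANCL. None of these 7 was above the control in the spike-in values by a test. With 7 of 46 the share called higher was near that of all genes, so it cannot be read as a trait of the repair genes. The median of the repair genes on the scale of the median gene was -0.10, with 28 below 0 and 18 above.

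RAD51C, a homologous recombination protein that pairs with XRCC3, had the lowest log2 change of all repair genes. Its reads were 937 in the control, 420 in dIWS1 column 1 and 385 in column 2. Both dIWS1 columns lay far below the control and close to each other. The log2 change was -1.14 ± 0.13 (SE; adjusted p = 1.7e-15), and 1.86% of all genes tested were lower still. Against the median gene the difference was -0.72 (adjusted p = 7.7e-06). RAD51C lies on chromosome 17 from 58692573 to 58735611 (GRCh38.p14, RefSeq).

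RAD50, the ATPase of the MRN complex that tethers broken ends, followed with 4859 reads in the control, 2347 in column 1 and 2115 in column 2. The dIWS1 columns were close to each other and far below the control. Its log2 change was -1.05 ± 0.15 (SE; adjusted p = 1.9e-10), and against the median gene the difference was -0.62 (adjusted p = 0.0015).

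BRCA1, the ubiquitin ligase subunit that promotes resection and recombination, had 4612 reads in the control, 2466 in column 1 and 2348 in column 2. Again the columns agreed, with log2 values of -0.88 and -0.84 over the control. The log2 change was -0.86 ± 0.15 (SE; adjusted p = 2.3e-07). Against the median gene the difference was -0.44, with an adjusted p of 0.049, just inside the threshold. With limma trend in place of voom that p became 0.19, so the call of BRCA1 relative to the median gene depends on the method. The call was kept with each column on its own median gene and with the control entered 2 times. It was also kept against the median of protein coding genes.

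**Figure D2:**
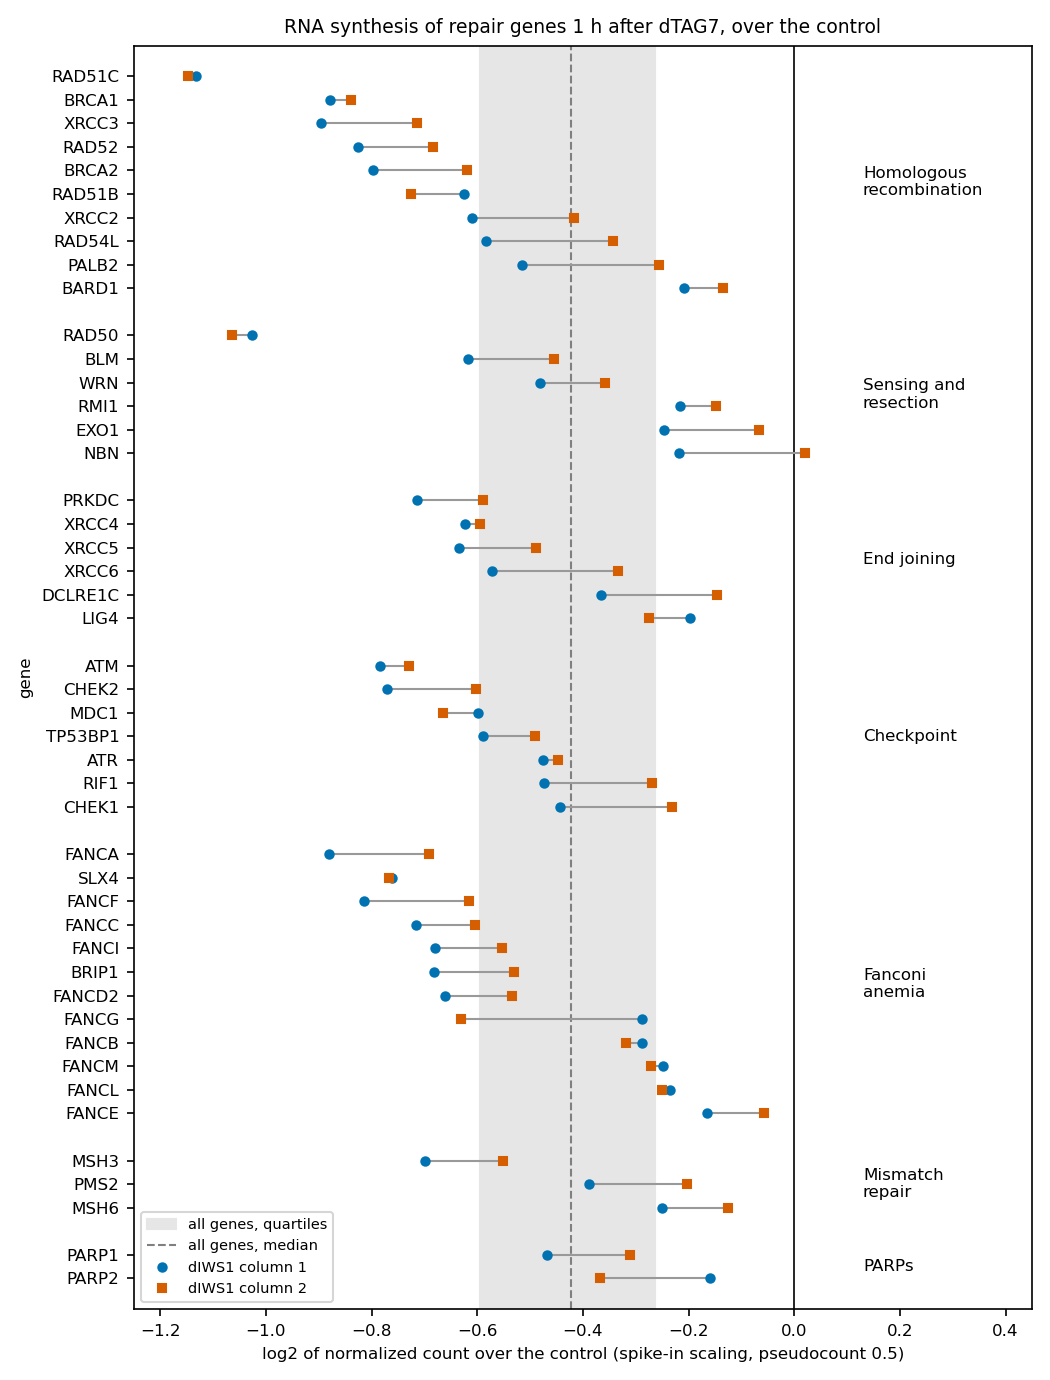
Log2 of the normalized count over the control for dIWS1 column 1 (circles) and column 2 (squares) of each repair gene, by role, with the median of all genes as a dashed line (-0.42) and their quartiles as a grey band (-0.60 to -0.26). RAD51C and RAD50 stand left of all others with both columns, and NBN is the gene whose column 2 lies right of 0.

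The promoters of these genes were examined in the RefSeq sequences, of which 41 of the 46 genes had an entry. A CCAAT box, the binding site of NF-Y (letters CCAAT on either strand), was found within 250 bases before a start in 21 of 41 repair genes (51.2%) and in 42.0% of the 8021 listed genes with an entry. An E2F-type site (letters TTTGGCGC, TTTCCCGC or TTTCGCGC on either strand) was found in 2 of 41 (4.88%) and in 5.07% of the listed genes. These are matches of letters only. The 250 bases before the start are shown for 4 of the 9 genes whose window holds no annotated exon. They are RAD51C, with the lowest change, BARD1 and FANCE, with changes near the upper end, and FANCM, which has CCAAT boxes. Capitals mark a CCAAT box or its reverse complement, of which FANCM has 2, at 207 and 74 bases before its start, and the others none. The windows are, in GRCh38.p14, chr17:58692323-58692572 (plus strand), chr2:214809684-214809933 (minus strand), chr6:35452088-35452337 (plus strand) and chr14:45135680-45135929 (plus strand). Their GC contents are 55.2%, 75.2%, 73.6% and 46.4%.
RAD51C: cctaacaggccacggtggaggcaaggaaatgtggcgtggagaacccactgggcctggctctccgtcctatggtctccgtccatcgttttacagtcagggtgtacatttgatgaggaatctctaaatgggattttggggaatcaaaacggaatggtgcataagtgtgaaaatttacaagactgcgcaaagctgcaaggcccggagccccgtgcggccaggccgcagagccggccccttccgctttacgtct
BARD1: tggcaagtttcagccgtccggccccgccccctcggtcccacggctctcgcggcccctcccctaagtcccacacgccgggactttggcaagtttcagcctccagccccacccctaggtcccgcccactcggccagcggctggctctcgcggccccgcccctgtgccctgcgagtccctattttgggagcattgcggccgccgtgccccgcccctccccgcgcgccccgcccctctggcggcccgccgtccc
FANCE: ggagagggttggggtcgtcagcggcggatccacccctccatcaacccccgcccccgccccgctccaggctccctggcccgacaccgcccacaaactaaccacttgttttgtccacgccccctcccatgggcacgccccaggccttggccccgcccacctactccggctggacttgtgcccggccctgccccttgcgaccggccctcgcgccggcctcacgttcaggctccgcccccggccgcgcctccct
FANCM: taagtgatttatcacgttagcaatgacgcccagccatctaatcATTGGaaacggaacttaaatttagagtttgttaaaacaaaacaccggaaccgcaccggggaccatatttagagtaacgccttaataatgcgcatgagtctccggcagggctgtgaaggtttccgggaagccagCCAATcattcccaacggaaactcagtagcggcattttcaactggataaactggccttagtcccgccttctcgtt

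The 10 listed genes of homologous recombination had a median log2 change of -0.69, or -0.27 relative to the median gene. XRCC3, the partner of RAD51C, had 1065 reads in the control, 563 in column 1 and 591 in column 2 (log2 change -0.80 ± 0.13, adjusted p = 4.3e-08). Its value relative to the median gene was -0.38, and the adjusted p of 0.052 was just over the threshold. BRCA2, which acts on resected DNA, had 3100, 1754 and 1837 reads in the control, column 1 and column 2 (log2 change -0.71 ± 0.15). PALB2, which links BRCA2 to BRCA1, had 2721, 1872 and 2074 reads (log2 change -0.39 ± 0.15), with the columns further apart than those of BRCA2. RAD52, an annealing protein, had a log2 change of -0.75, and RAD51B and XRCC2, related in sequence to RAD51C, had -0.67 and -0.51. RAD54L, a motor protein of the SWI2/SNF2 family, had -0.46. BARD1, the obligate partner of BRCA1, had 4067 reads in the control, 3462 in column 1 and 3371 in column 2. Its log2 change was -0.17 ± 0.15 (adjusted p = 0.29).

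The 6 listed genes of break sensing, end resection and helicases were widely spread. Their median log2 change was -0.30, or 0.12 relative to the median gene. RAD50 was at one end, described above, and NBN at the other. NBN, the MRN subunit that recruits ATM, had 4197 reads in the control, 3549 in column 1 and 3876 in column 2. Column 1 lay at a log2 of -0.22 and column 2 at 0.02 over the control, so the columns were on both sides of it. The log2 change was -0.10 ± 0.15 (adjusted p = 0.55), the highest of the repair genes, and 92.6% of all genes tested were lower. The helicase BLM had a log2 change of -0.54 and the helicase WRN -0.42, both called lower. RMI1, a partner of BLM, had -0.18 and the exonuclease EXO1 -0.16, and neither was called.

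The 6 end joining genes had a median log2 change of -0.51, or -0.084 relative to the median gene. PRKDC, which encodes DNA-PKcs, was the most highly counted repair gene, with 39325 reads in the control, 23584 in column 1 and 23818 in column 2 (log2 change -0.65 ± 0.14, adjusted p = 1.3e-05). The Ku subunits had log2 changes of -0.56 (XRCC5) and -0.45 (XRCC6), and the scaffold XRCC4 had -0.61. LIG4, the ligase that XRCC4 holds, had 218 reads in the control, 187 in column 1 and 164 in column 2 (log2 change -0.23 ± 0.16, adjusted p = 0.16). DCLRE1C, the nuclease Artemis, had -0.26 and was not called either. At the depth of LIG4, the counting interval of each column included the control level. The log2 of column 1 over the control had a 95% interval of -0.49 to 0.09 and that of column 2 an interval of -0.58 to 0.02 (exact Clopper-Pearson, counting error only).

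The 7 listed checkpoint genes had a median log2 change of -0.54, or -0.12 relative to the median gene. ATM, the kinase activated by breaks, had 4322 reads in the control, 2470 in column 1 and 2373 in column 2 (log2 change -0.76 ± 0.15, adjusted p = 5.2e-06). ATR, the kinase activated by single-stranded DNA, had 5688, 4026 and 3798 reads in the control, column 1 and column 2 (log2 change -0.46 ± 0.15, adjusted p = 0.0052). The effector kinases downstream of them had log2 changes of -0.69 (CHEK2) and -0.34 (CHEK1). Thus each kinase of the ATM branch had the lower value of its pair, and the read ratios below give the size of the difference. Of the chromatin readers at breaks, MDC1 had -0.63, TP53BP1 -0.54 and its effector RIF1 -0.37.

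The 12 Fanconi anemia genes had a median log2 change of -0.60, or -0.18 relative to the median gene. FANCA, a subunit of the core complex, had 9506 reads in the control, 5076 in column 1 and 5360 in column 2 (log2 change -0.79 ± 0.15, adjusted p = 1.6e-06). SLX4, a scaffold for nucleases, followed with -0.76. The substrates of the core complex had nearly the same value, with -0.60 for FANCD2 (4319, 2687 and 2715 reads in the control, column 1 and column 2) and -0.62 for FANCI. BRIP1, the helicase that binds BRCA1, had -0.61, and the core subunit FANCC had -0.66. FANCB, FANCM, FANCL and FANCE made up the upper end, with log2 changes of -0.30, -0.26, -0.24 and -0.11, of which only that of FANCB was called lower. FANCL is the ubiquitin ligase of the core complex and FANCE its link to FANCD2. FANCE had 514 reads in the control, 451 in column 1 and 450 in column 2. The shortest gene, FANCF, had 113, 63 and 67 reads in the control, column 1 and column 2 (log2 change -0.72 ± 0.21, adjusted p = 0.0014), and FANCG had -0.45 with columns at -0.29 and -0.63.

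The 3 mismatch repair genes had a median log2 change of -0.29, or 0.13 relative to the median gene. MSH3 had 9769 reads in the control, 5921 in column 1 and 6071 in column 2 (log2 change -0.63 ± 0.15, adjusted p = 0.00013). MSH6, which pairs with the same partner to recognise mismatches, had 3651, 3018 and 3049 reads in the control, column 1 and column 2 (log2 change -0.19 ± 0.15, adjusted p = 0.25). PMS2 had -0.29 and was called lower. PARP1, the main sensor of strand breaks among the poly(ADP-ribose) polymerases, had -0.39 and was called lower, and PARP2 had -0.26 (302, 266 and 213 reads in the control, column 1 and column 2) and was not. PMS2, CHEK2, FANCD2 and XRCC6 have near-identical copies elsewhere in the genome, and the authors kept unique alignments, so part of their reads could be missing.

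The ratio of the reads of 2 genes within a column does not depend on how the columns are scaled. Such ratios were computed for 14 pairs of partner or sister genes, picked after the values were seen. In 10 pairs both dIWS1 columns differed from the control in the same direction by more than counting error. The share among pairs of other genes was not computed, so this count cannot be read as a trait of partner genes. RAD50 to NBN was 1.16 in the control, 0.661 in column 1 and 0.546 in column 2, a log2 shift of -0.81 (95% counting interval -0.90 to -0.71) and -1.09 (-1.18 to -0.99). BRCA1 to BARD1 was 1.13 in the control, 0.712 in column 1 and 0.697 in column 2, with log2 shifts of -0.67 (-0.77 to -0.57) and -0.70 (-0.80 to -0.61). In these pairs the reads of the 2 subunits stood in other proportions in both dIWS1 columns than in the control. The ratio of MSH3 to MSH6 went from 2.68 to 1.96 and 1.99. That of ATM to ATR went from 0.760 to 0.614 and 0.625, and that of CHEK2 to CHEK1 from 0.154 to 0.123 and 0.119. BRCA2 to PALB2 went from 1.14 to 0.937 and 0.886. FANCD2 to FANCI, by contrast, was 0.593 in the control, 0.602 in column 1 and 0.601 in column 2, with log2 shifts of 0.02 in both columns and intervals from -0.07 to 0.11. XRCC5 to XRCC6 was 4.26, 4.08 and 3.83 in the control, column 1 and column 2, and the interval of column 1 (-0.14 to 0.01) included 0. PARP1 to PARP2 and FANCA to FANCG had intervals that included 0 in column 2, from -0.20 to 0.32 and from -0.38 to 0.26. The intervals cover counting error only, and the pairs share the control column.

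Some repair genes start close to a gene on the other strand. A listed neighbour whose start lies within 1 kb, head to head, was found for 13 of the 46 repair genes. The share over all listed genes was not computed, and whether the 2 genes use 1 promoter was not tested. The log2 change of the repair gene was below that of its nearest neighbour in 11 of the 13, with a median difference of -0.17. It was below in both dIWS1 columns in 8 of the 13. The same comparison was not made for head-to-head pairs of other genes, and gene length was not matched. All repair genes together had a median of -0.10 relative to the median gene, so these counts cannot be read as a trait of paired starts. In 5 pairs the read ratio of repair gene to neighbour was below the control by more than counting error in both columns, and in none was it above. These were BRCA1 with NBR2, XRCC3 with ZFYVE21, ATM with NPAT, PRKDC with MCM4 and FANCB with MOSPD2. NBR2, whose start lies 68 bases from that of BRCA1, had 2027 reads in the control, 1392 in column 1 and 1254 in column 2 (log2 change -0.54). The ratio of BRCA1 to NBR2 reads shifted by -0.36 (-0.48 to -0.24) and -0.28 (-0.41 to -0.16) on the log2 scale. A further BRCA1 start lies 236 bases from NBR1, and the intervals of that ratio included 0 in both columns. XRCC3 and ZFYVE21 had the widest gap, with log2 changes of -0.80 and -0.28. NPAT, a regulator of histone genes that starts 429 bases from ATM, had -0.46, against -0.76 for ATM. MOSPD2 had -0.02, against -0.30 for FANCB, and was itself called higher than the median gene. Of the pairs closest in value, LIG4 and ABHD13, 24 bases apart, had -0.23 and -0.22, PMS2 and AIMP2 had -0.29 and -0.30, and XRCC6 and DESI1 had -0.45 and -0.47. The authors removed overlapping genes and counted with respect to strand.

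**Figure D3:**
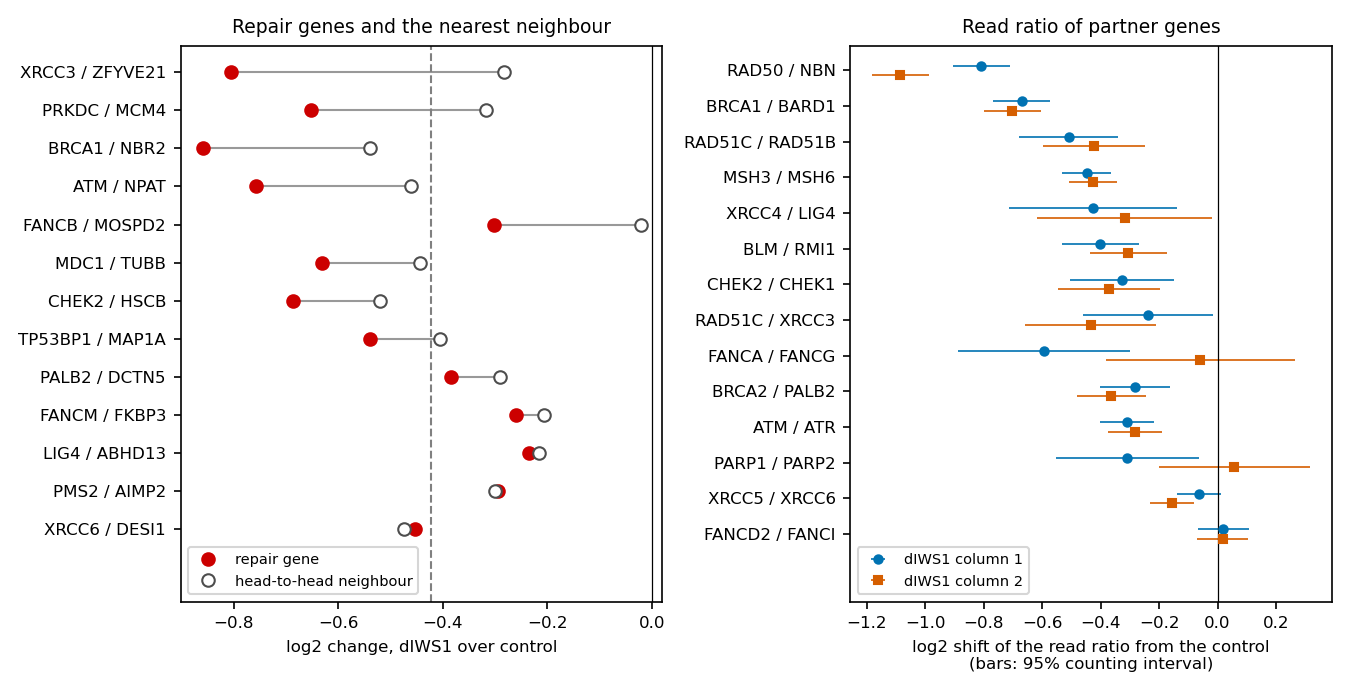
Left, log2 change (dIWS1 over control, spike-in scaling) of 13 repair genes (filled) and of the nearest head-to-head neighbour (open), with the median of all genes as a dashed line. Right, log2 shift from the control of the read ratio of 14 pairs of repair genes in dIWS1 column 1 (circles) and column 2 (squares), with 95% counting intervals as bars; RAD50 to NBN and BRCA1 to BARD1 lie furthest left, at -0.81 and -1.09 and at -0.67 and -0.70, and FANCD2 to FANCI lies at 0.02.

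The repair genes are long. Their median span from first to last annotated base was 69.1 kb, against 28.2 kb for the 9872 genes tested with a span, and they ran from 3.29 kb (FANCF) to 863 kb (RAD51B). Of the 23 genes of at least 65 kb, 21 were called lower, and in this class 77.8% of all genes were. The median log2 change of these 23 was -0.61, and that of all genes of the class was -0.49. In the next shorter class, from MSH6 with 27.0 kb to FANCM, 10 of 15 repair genes were called lower, against 57.2% of all genes, with medians of -0.39 and -0.35. In the class below it, with repair genes from 10.9 to 23.7 kb, 2 of 6 were called lower, against 64.0% of all genes. The median was then above that of all genes, with -0.25 and -0.39, and the 6 included XRCC3 at -0.80 as well as FANCE at -0.11. Both genes under 10 kb, FANCF and FANCG, were called lower. Over the 46 genes the Spearman correlation of log2 change with span was -0.29, and RAD51C, at 43.0 kb, was lower than all repair genes of over 65 kb. The correlation is a description over genes that share the same 3 columns.

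**Figure D4:**
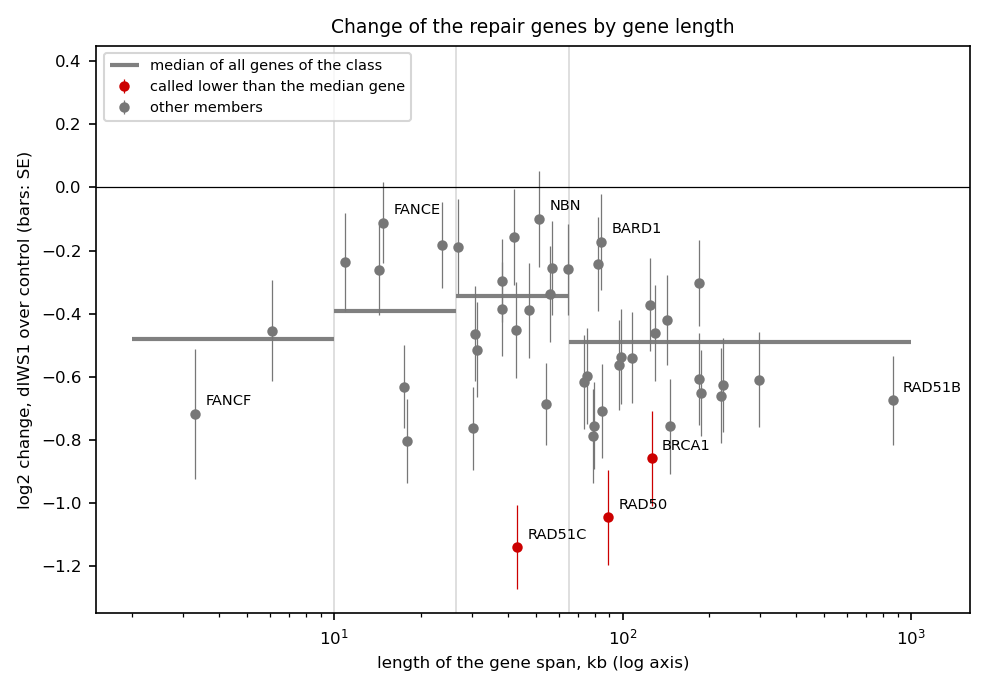
Log2 change (dIWS1 over control, points, with SE as bars) of the 46 repair genes against the length of the gene (log axis, kb), with the 3 genes called lower than the median gene in red and the median of all genes of each length class as grey lines. Repair genes of 65 kb and more lie mostly below the line of their class at -0.49, and RAD51C lies lowest at -1.14.

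Per kilobase of span, the repair genes were transcribed close to the usual level, with a median control count of 50.3 normalized reads per kb against 41.4 for all genes, and 27 of the 46 lay above the latter. The highest were PRKDC with 208, XRCC2 with 202 and XRCC5 with 186 normalized reads per kb, and the lowest were FANCB with 6.41 and CHEK2 with 14.3. The Spearman correlation of this level with the log2 change was 0.20 over the 46 genes. RAD51C and XRCC3, which bind each other, had 21.6 and 59.1, and RAD50 and NBN had 53.9 and 81.0.

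A further 58 listed genes of the same pathways had a median closer to the median gene than the repair genes did. With spike-in scaling their median log2 change was -0.43, against -0.52 for the repair genes. Relative to the median gene their median was -0.0033, against -0.10 for the repair genes. With spike-in scaling 77.6% of the 58 were called lower, against 76.1% of the repair genes (65.6% of all genes tested). Relative to the median gene 6 of the 58 were called lower, against 3 of the 46 repair genes. With each column on its own median gene, 9 of the 58 were called lower and 3 higher, against 17 and 7 repair genes. The median span of the 58 was 31278 bp, against 69121 bp for the repair genes, and length was not matched. The 3 lowest of the 58 were FAAP24, HELQ and EME1. HELQ, a helicase in crosslink repair and recombination, had 1299 reads in the control, 528 in column 1 and 468 in column 2, a log2 change of -1.31 ± 0.14 and a difference of -0.88 from the median gene (adjusted p = 2.3e-08). EME1, the partner of the nuclease MUS81, had 178, 74 and 87 reads in the control, column 1 and column 2 (log2 change -1.07 ± 0.18), while MUS81 itself had -0.49. FAAP24, a partner of FANCM, had 57, 30 and 14 reads in the control, column 1 and column 2 (log2 change -1.36 ± 0.28), with columns far apart. The nucleases FAN1 and ERCC4 and the end joining factor APLF lay at -0.61, -0.46 and -0.51 relative to the median gene. At the upper end were SWSAP1 with a log2 change of 0.01 (24, 22 and 24 reads in the control, column 1 and column 2), RAD51AP1 with -0.14 and USP1 with -0.22, none of which was called.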

How the data were processed

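The TT-seq libraries are labelled as 2 control and 2 dIWS1, and the main fits used 1 control column and 2 dIWS1 columns. The authors aligned reads to GRCh38 with spike-in sequences (STAR 2.6.0, unique alignments), counted them per RefSeq gene with respect to strand, removed overlapping genes, kept those with RPK over 10 and fitted DESeq2 with spike-in size factors. The deposited signal per gene is the mean over columns of reads divided by size factors. The deposited log2 fold change, with its standard error, Wald statistic, p-value and adjusted p-value, is the authors' comparison, and none of its values is reported. The means up to a low value differ by 3 steps, 1 per column, and each mean was split into whole numbers of these steps, with the control entering 2 times. From the mean alone 9720 of 10147 genes had 1 solution, and for 427 genes, none with a mean under 10019, the deposited log2 fold change chose among several (RAD51B, PRKDC, BRIP1 and XRCC5 among the repair genes). In simulated means 986 of 986 genes were recovered. The simulated means stayed below those of XRCC5, RAD51B and PRKDC, so they are no check of the reads of these genes. Tests used limma 3.58.1 (voom, R 4.3.3) on these reads with the spike-in size factors, the control entered 1 time and Benjamini-Hochberg adjustment over 9917 genes with a mean of at least 10. This leaves 1 residual degree of freedom per gene, and in the main fits the variance was in effect that of all genes together. In data simulated for the comparison of dIWS1 with control on 9917 genes, 48 of 50 genes at a log2 change of -1, 32 of 50 at -0.5 and 10 of 9717 unchanged genes were called. That simulation of reads drew each gene independently with a fixed dispersion. It held no offset between the dIWS1 columns and no error of the spike-in factors or of the control shared by all genes. Its rates are therefore not the error rates of the tests above. Log2 values of single columns used a pseudocount of 0.5. Spans and promoter sequences are from RefSeq (GRCh38.p14) and transcript starts from GENCODE release 44. All repair genes are accounted for, and named are all repair genes called relative to the median gene, the lowest and highest of each role, well-known members and head-to-head neighbours, and the 3 lowest and highest other pathway genes. Members and lists were chosen with earlier results of these data known. The alternatives tried were other scalings, filters, thresholds and weights of the control.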

Additional observations from a re-analysis of the deposited data

How the results depend on the processing

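No paired analysis was possible because the recovered columns carry no replicate number and the control columns are identical. Against 35 repair genes called lower with spike-in scaling, 17 were called lower with total reads per column as the scale and 21 with the dIWS1 spike-in factors down by 0.2 (log2). With total reads 9 repair genes were called higher, all among the 11 that were not called with spike-in scaling. Relative to the median gene, 17 were called lower and 7 higher with each column on its own median, 11 and 5 with the control column entered 2 times, and 2 with an adjusted p under 0.01. The other scalings, filters and thresholds kept these counts within 1.5 times of the reported ones, and changed none of the counts of 0. The median log2 change of the repair genes was -0.083 with total reads, and it ranged from -0.59 to -0.47 when either dIWS1 column was left out. Relative to the median gene the median ranged from -0.12 to -0.10 without a column. With total reads the log2 change turned positive for 18 genes: WRN 0.022, PARP1 0.052, PALB2 0.056, RIF1 0.071, CHEK1 0.10, FANCB 0.14, PMS2 0.15, PARP2 0.18, FANCM 0.18, DCLRE1C 0.19, FANCL 0.20, LIG4 0.21, MSH6 0.25, RMI1 0.26, BARD1 0.27, EXO1 0.28, FANCE 0.33 and NBN 0.34. NBN was at 0.020 without dIWS1 column 1 and at -0.22 without dIWS1 column 2. The causes were not tested. XRCC3 was called relative to the median of protein coding genes (adjusted p = 0.047). The limit set by depth is largest for FANCF, with 113 control reads, and the direction of all spike-in values rests on factors that cannot be checked in the table.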
